A study of Homo sapiens with 9 samples.

Results

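The genes examined here are 36 splicing regulators: 14 serine/arginine-rich (SR) proteins and SR-like factors, 18 heterogeneous nuclear ribonucleoproteins (hnRNPs) and the 4 CDC-like kinases (CLKs). They were chosen by gene symbol from the 19930 genes with values in the deposited table, and all 36 symbols were found. Expression was measured by RNA sequencing in MDA-MB-453, an established human breast cancer cell line, transfected with siRNA 1 or siRNA 2 against the long noncoding RNA LINC00673 or with a control siRNA. Each of the 3 groups held 3 libraries of total RNA, and the stated protocol harvests cells 48 h after transfection with a lipid reagent. A general statement in the methods refers to independent experiments without naming these libraries, and the sources do not tie the libraries of a group to separate cultures, so P values measure only the spread between these libraries, which may be technical. The comparison asks how this knockdown changes the regulators of splicing. The level of LINC00673 itself was not analysed here.

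Values are FPKM, fragment numbers adjusted for the length of the transcript and the depth of the library, so that levels of different genes can be compared per length. Each library held an estimated 23.2 to 27.9 M (mega) fragments. The labelled cell line was checked against its markers. KRT8 (3011 to 3773 FPKM), KRT18 (1680 to 2509 FPKM), EPCAM (287 to 330 FPKM) and ERBB2 (11.8 to 17.8 FPKM) were present in the 9 libraries, but FOXA1 (0 to 0.04 FPKM), a luminal factor for which MDA-MB-453 is known, was at or near 0. Of the 9 markers of basal epithelium, fibroblasts and leukocytes, CD3E was not in the table and only COL1A1 (3.49 to 7.08 FPKM) exceeded 1 FPKM. The summed fibroblast markers, mostly COL1A1, were 3.86 to 4.48 FPKM with control siRNA. They were 5.74 to 6.28 FPKM with siRNA 1 and 5.62 to 7.39 FPKM with siRNA 2. The summed luminal markers, mostly KRT8 and KRT18, were 6108 to 6587 FPKM with control siRNA. Their sums were 5032 to 5533 FPKM with siRNA 1 and 5130 to 5581 FPKM with siRNA 2. Whether these shifts have a part in the changes described here was not tested.

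SR proteins bind RNA through RNA recognition motifs and carry a domain of arginine-serine repeats that recruits the splicing machinery, and they mostly promote the use of exons to which they bind. Many hnRNPs bind silencer elements and oppose that use, although several act in either direction depending on position. CLKs phosphorylate the arginine-serine repeats in the nucleus and so set how much SR protein is free to act. Many SR protein and hnRNP genes limit their own mRNA by splicing in an exon that leads to decay of the transcript, an event that a value per gene does not resolve.

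The antisense strands of the siRNAs, which guide target recognition, are shown because part of the strand can also pair with other mRNAs. The groups were matched to these strands by their number alone. The seed, bases 2 to 8 from the 5′ end, is in capitals.
siRNA 1: aGAAACCUcugauuccacctt
siRNA 2: uUAUUAUUugagacagggucu
control siRNA: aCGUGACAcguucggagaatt
The complement of the siRNA 1 seed, AGGTTTC, occurred in the longest coding GENCODE transcript of 10 of the 35 regulators that entered the test, and in 22.8% of 11190 tested genes with a transcript. For siRNA 2 the complement, AATAATA, occurred in 11 of 35 and in 27.6% of the genes. The control siRNA also has a seed, whose complement, TGTCACG, occurred in 3 of 35 (SRSF4, SRSF7 and TRA2B) and in 7.3% of the genes. The longest run of bases that any of these regulators shared with the target was 10 for siRNA 1 and 12 (SRSF4) for siRNA 2. The median log2 fold change was -0.08 in the 10 regulators with a siRNA 1 site and -0.06 in the 25 without, and -0.22 in the 11 with a siRNA 2 site and -0.17 in the 24 without. These medians are a description, and a part of seed pairing in the changes was not tested.

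SR proteins made up 4 of the 7 regulators called lower with siRNA 1 and 8 of the 12 called lower with siRNA 2. Among the 18 hnRNPs, HNRNPA1 and HNRNPA0 fell with both siRNAs and HNRNPH3 with siRNA 2. These are smaller shares than the 15.6% and 23.1% of all tested genes called lower with siRNA 1 and siRNA 2. The CLK kinases went in different directions, CLK2 falling with both siRNAs and CLK3 rising with siRNA 2. SRSF12, a regulator of restricted tissue expression, was listed at 0 to 0.02 FPKM in the 9 libraries and lay under the filter of a mean of 1 FPKM. The other 35 were tested with limma on log2(FPKM + 1) in a fit across 12884 genes, and fold changes are on that scale, which understates the change of low genes. A gene was called higher or lower when its fold change was at least 1.3 (0.38 on the log2 scale) and its unadjusted P at most 0.05, the criteria of the study. In bulk RNA, fewer cells of a type and less RNA per cell cannot be told apart.

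With siRNA 1, 7 of the 35 regulators were called lower, where the share of all tested genes called lower was 15.6%, so that the share of regulators was near the background, and 0 were called higher (all genes: 11.1%). Without the fold limit, limma gave an unadjusted P of at most 0.05 for 8 higher and 17 lower regulators, and an adjusted P of at most 0.05 for 7 higher and 16 lower, where all genes had 32.1% higher and 32.3% lower. With siRNA 2, 12 were called lower (all genes: 23.1%) and 1 higher (all genes: 11%). Without the fold limit, 5 were higher and 21 lower at an adjusted P of at most 0.05 (all genes: 26.0% and 44.8%). These 2 counts depend on the scale of the libraries, since they were 11 and 15 when each library was divided by its median ratio to the geometric mean of expressed genes (scaling), which moved the median of all genes from -0.095 to -0.0038. The libraries of siRNA 1 and control did not overlap for 26 of the 35 regulators (all genes: 70.0%), and those of siRNA 2 and control did not overlap for 30 (all genes: 73.0%), the first of these shares being near its background. Both comparisons share the control libraries.

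By class, 4 of the 13 tested SR proteins were called lower with siRNA 1 and 8 with siRNA 2, with 0 higher. Their median log2 fold change was -0.32 with siRNA 1 and -0.47 with siRNA 2, beside medians of 0.0032 and -0.095 over all tested genes. Of the 18 hnRNPs, 2 were called lower with siRNA 1 and 3 with siRNA 2, with 0 higher and medians of -0.01 and -0.07. Of all tested genes, 15.6% were called lower with siRNA 1 and 23.1% with siRNA 2. The shares of SR proteins called lower were above these values, and those of hnRNPs were below them. At an unadjusted limma P of at most 0.05 and no fold limit, 1 SR protein was higher and 10 were lower with siRNA 1, and 1 and 12 with siRNA 2, where 33.8% of all genes were higher and 33.9% lower with siRNA 1 and 26.9% and 46.0% with siRNA 2. Of the hnRNPs, 5 were higher and 6 lower with siRNA 1, and 1 and 8 with siRNA 2. After scaling the hnRNP counts with siRNA 2 turned to 8 higher and 5 lower and the hnRNP median to 0.04, whereas the SR protein counts were 1 and 11. Among the 4 CLK kinases, 1 was called lower with siRNA 1, while 1 was lower and 1 higher with siRNA 2, and the medians were 0.09 and 0.13. These counts and medians are given as a description of the classes, without a test between them.

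**Figure D1:**
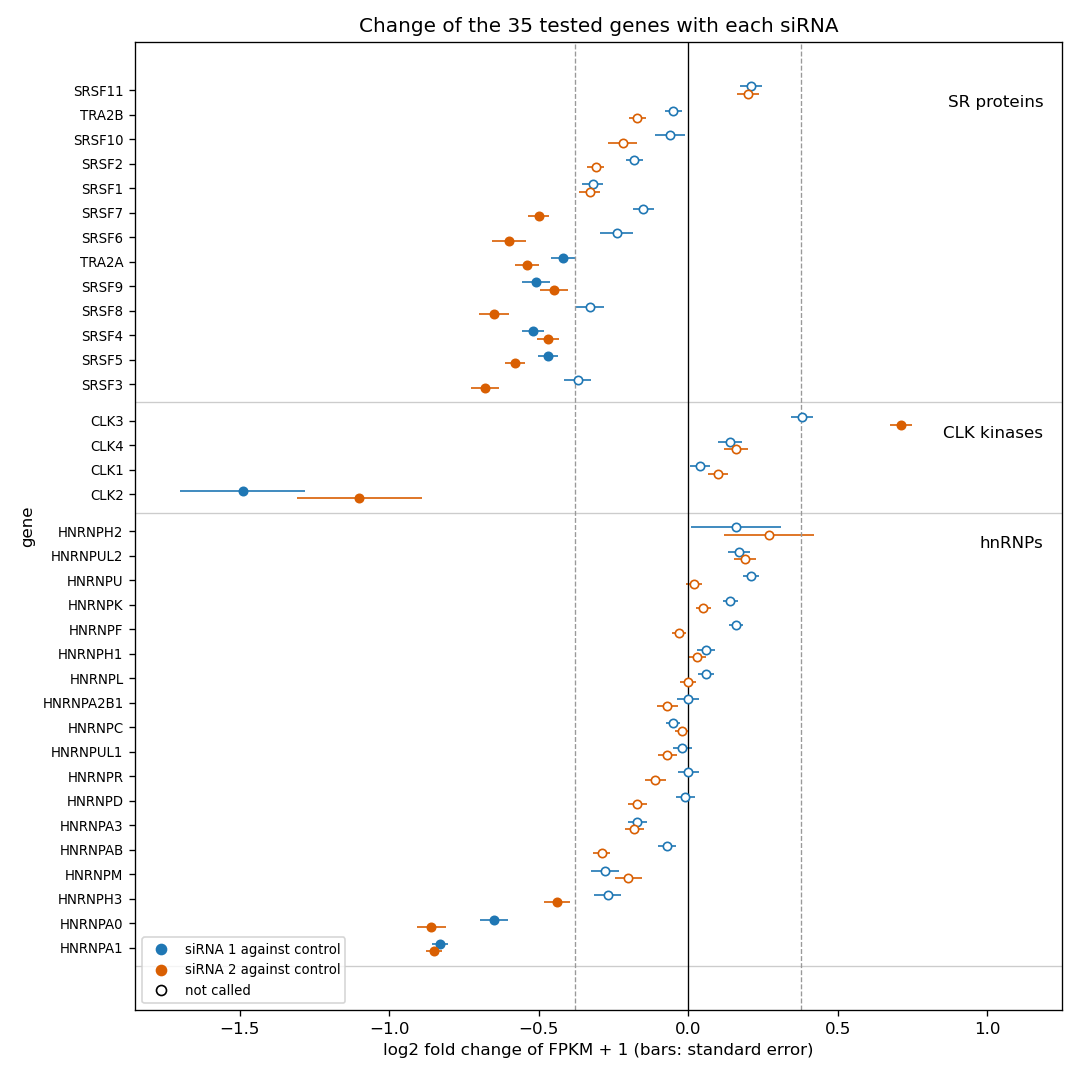
Log2 fold changes of FPKM + 1 (horizontal axis) for the 35 tested genes, by class and ordered by their mean change, with siRNA 1 in blue and siRNA 2 in orange, each against control. Bars are standard errors, filled points were called, and dashed lines mark the 1.3-fold limit; most SR proteins lie to the left of 0, whereas most hnRNPs cluster near 0 and HNRNPA1 and HNRNPA0 lie at -0.65 to -0.86.

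SRSF5, the most abundant SR protein mRNA in these libraries, had 193, 198 and 195 FPKM with control siRNA, 145, 136 and 141 with siRNA 1 and 126, 135 and 131 with siRNA 2. Each siRNA library was below each control library. The log2 fold change was -0.47 with siRNA 1 (SE 0.0336, limma adjusted P = 1.8e-06) and -0.58 with siRNA 2 (SE 0.0336, limma adjusted P = 3.0e-07). SRSF4, a member with a long arginine-serine domain, had 46.4, 44.3 and 45.6 FPKM in the control libraries, 32.5, 31.5 and 30.1 with siRNA 1 and 32.0, 33.2 and 32.1 with siRNA 2. The siRNA groups overlapped each other and both lay below the control, at -0.52 and -0.47 on the log2 scale (SE 0.0361 for both, limma adjusted P = 1.5e-06 and 1.7e-06).

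TRA2A is an SR-like activator of exons related to the fly factor Transformer-2. It had 30.3, 33.0 and 31.6 FPKM with control siRNA, 24.3, 22.5 and 23.5 with siRNA 1 and 21.4, 21.8 and 21.1 with siRNA 2. The groups were fully separated, and the log2 fold change was -0.42 with siRNA 1 and -0.54 with siRNA 2 (SE 0.0405, limma adjusted P = 1.3e-05 and 1.6e-06). Its paralog TRA2B had 44.1 to 45.7 FPKM in control libraries, 43.0 to 44.3 with siRNA 1 and 39.1 to 40.7 with siRNA 2, and was not called with either (log2 fold changes -0.05 and -0.17, limma adjusted P = 0.2 and 4.9e-04). SRSF9, a small SR protein, had 122, 115 and 120 FPKM with control siRNA, 83.3, 86.8 and 79.3 with siRNA 1 and 81.4, 87.5 and 90.9 with siRNA 2. Both siRNA groups lay below the control and overlapped each other, with log2 fold changes of -0.51 and -0.45 (SE 0.0474, limma adjusted P = 9.2e-06 and 1.5e-05). Its transcript is covered in full (100% of 100-base windows) by transcripts of GATC on the opposite strand, and whether fragments were counted by strand is not given in the sources used here, so its value is uncertain.

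A further 4 SR proteins were called lower with siRNA 2 and not with siRNA 1, and for all 4 the contrast between the siRNAs, given further on, had an adjusted P no higher than 0.05 with a difference of less than 1.3-fold. SRSF3, the smallest SR protein and a regulator of mRNA export as well as of splicing, had 64.4, 65.7 and 62.7 FPKM with control siRNA, 48.8, 49.7 and 49.5 with siRNA 1 and 43.0, 39.0 and 37.5 with siRNA 2. The 3 groups did not overlap. The log2 fold change with siRNA 1, -0.37 (SE 0.0458, limma adjusted P = 5.9e-05), lay just under the fold limit, and that with siRNA 2 was -0.68 (SE 0.0458, limma adjusted P = 8.0e-07). With 0.1 instead of 1 added to FPKM, the siRNA 1 value was -0.38 and was called lower. It was also called without the r2 control library (-0.39) or the r1 library of siRNA 1 (-0.38), so its lack of a call with siRNA 1 is not firm.

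SRSF6, which has a tandem pair of RNA recognition motifs like SRSF4 and SRSF5, had 46.8, 49.2 and 48.3 FPKM in the control libraries, 40.0, 38.1 and 43.5 with siRNA 1 and 33.6, 31.4 and 29.4 with siRNA 2. The siRNA 2 libraries were below the siRNA 1 libraries and these below the control, with log2 fold changes of -0.24 for siRNA 1 and -0.60 for siRNA 2 (SE 0.0564, limma adjusted P = 0.0037 and 7.7e-06). SRSF7, which also contains a zinc knuckle, had 50.0, 50.1 and 48.9 FPKM with control siRNA, 42.6, 45.9 and 45.5 with siRNA 1 and 35.2, 34.1 and 35.4 with siRNA 2. The same order of groups was seen, with log2 fold changes of -0.15 and -0.50 (SE 0.0347, limma adjusted P = 0.0035 and 1.0e-06). SRSF8, an SR protein gene related to SRSF2, had 8.01, 7.94 and 8.18 FPKM with control siRNA, 6.20, 5.80 and 6.61 with siRNA 1 and 4.94, 4.72 and 4.63 with siRNA 2. Its groups were likewise separated, and the log2 fold changes were -0.33 and -0.65 (SE 0.0488, limma adjusted P = 2.2e-04 and 1.6e-06).

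The remaining SR proteins were not called. SRSF1, the founding member, had a mean of 61.4 ± 0.859 FPKM (SD, n = 3) with control siRNA, 49.1 ± 1.56 (SD, n = 3) with siRNA 1 and 48.6 ± 1.63 (SD, n = 3) with siRNA 2. Its log2 fold changes, -0.32 and -0.33, had limma adjusted P = 2.9e-05 and 1.7e-05 but lay under the fold limit, and 56.2% of its 100-base windows also occur in the annotated gene AC015813.2. SRSF2, which binds exonic enhancers, stood at -0.18 and -0.31 on the log2 scale (limma adjusted P = 3.4e-04 and 7.0e-06), and 24.6% of its windows lie opposite MFSD11. SRSF10, known as a splicing repressor after heat shock, stood at -0.06 and -0.22 (limma adjusted P = 0.33 and 0.0031). SRSF11 differed in sign from the other 12, with 70.6 to 75.3 FPKM in the control libraries, 81.0 to 86.2 with siRNA 1 and 82.6 to 86.0 with siRNA 2. It was not called, at 0.21 and 0.20 on the log2 scale (limma adjusted P = 5.5e-04 for both).

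After scaling, SRSF4 (-0.37) and SRSF9 (-0.35) were no longer called with siRNA 2, and with the correction for transcript length the calls of SRSF7 (-0.35) and SRSF9 (-0.35) with siRNA 2 and of TRA2A (-0.33) with siRNA 1 ended. The correction for GC content added SRSF1 (-0.39), SRSF3 (-0.46) and SRSF8 (-0.40) with siRNA 1. The longest transcripts of the SR proteins have a GC content of 36.6% to 45.6%, below the median of 48.8% over tested genes.

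CLK3 was the regulator with the largest rise. It had 54.9, 52.5 and 53.7 FPKM with control siRNA, 70.1, 71.7 and 68.4 with siRNA 1 and 85.3, 92.9 and 87.8 with siRNA 2. The 3 groups did not overlap. The log2 fold change with siRNA 1 was 0.38 (SE 0.0367, limma adjusted P = 1.3e-05), just under the limit before rounding and therefore not called, and that with siRNA 2 was 0.71 (SE 0.0367, limma adjusted P = 1.4e-07).

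CLK2, the least abundant of the kinases, had 4.26, 4.18 and 6.89 FPKM in the control libraries, 1.13, 0.96 and 1.3 with siRNA 1 and 1.06, 2.64 and 1.91 with siRNA 2. All 6 siRNA libraries were below all 3 control libraries, but the values were spread within the control group, where 1 library stood above the other two, and within the siRNA 2 group. At the estimated depth they correspond to 73 to 588 fragments. The log2 fold change was -1.49 with siRNA 1 and -1.10 with siRNA 2 (SE 0.209, limma adjusted P = 1.5e-04 and 9.0e-04), and without the highest control library it was -1.3 and -0.90. CLK1, whose mRNA is partly retained with introns in the nucleus in many cells, had 63.8 to 69.6 FPKM with control siRNA, 68.0 to 69.2 with siRNA 1 and 70.6 to 72.7 with siRNA 2. CLK4, its closest relative, had 8.27 to 8.53 FPKM with control siRNA, 9.06 to 9.57 with siRNA 1 and 9.10 to 9.72 with siRNA 2. Neither was called: the log2 fold changes were 0.04 and 0.10 for CLK1 (limma adjusted P = 0.33 and 0.021) and 0.14 and 0.16 for CLK4 (limma adjusted P = 0.01 and 0.005).

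HNRNPA1, which binds silencers with a UAGG-like core and opposes SRSF1 at many exons, was the most abundant of the 36 mRNAs and ranked 58 of the 12884 tested genes in control libraries. It had 1827, 1871 and 1836 FPKM with control siRNA, 1066, 1037 and 1001 with siRNA 1 and 1037, 1011 and 1022 with siRNA 2. The siRNA groups overlapped each other and lay far below the control. The log2 fold change was -0.83 with siRNA 1 (SE 0.0272, limma adjusted P = 2.2e-08) and -0.85 with siRNA 2 (SE 0.0272, limma adjusted P = 6.7e-09). The deposited table places the gene on chromosome 12 from 54674474 to 54680871 on the forward strand, and the processing notes name the build GRCh37.p13. Of its 100-base windows, 25.3% also occur in 10 other annotated genes, mostly processed pseudogenes such as HNRNPA1P48, so how fragments were divided among them affects its value.

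HNRNPA0, a single-exon relative of HNRNPA1, had 46.7, 42.6 and 46.4 FPKM with control siRNA, 29.7, 28.0 and 28.0 with siRNA 1 and 23.3, 25.6 and 24.7 with siRNA 2. The groups did not overlap, and the log2 fold changes were -0.65 and -0.86 (SE 0.0481, limma adjusted P = 2.3e-06 and 2.4e-07). HNRNPH3, a binder of G-rich sequence, had 72.6, 73.8 and 73.4 FPKM with control siRNA, 63.9, 59.4 and 58.7 with siRNA 1 and 50.7, 56.3 and 54.4 with siRNA 2. Its groups were separated as well, and the fall was called with siRNA 2 (log2 fold change -0.44, SE 0.0442, limma adjusted P = 1.2e-05) and not with siRNA 1 (-0.27, SE 0.0442, limma adjusted P = 4.2e-04). After scaling the siRNA 2 value was -0.34, and after the length correction -0.30, both uncalled.

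The other 15 hnRNPs were not called with either siRNA. HNRNPM, HNRNPA3 and HNRNPAB had the lowest values, at log2 fold changes of -0.28, -0.17 and -0.07 with siRNA 1 and -0.20, -0.18 and -0.29 with siRNA 2. HNRNPA2B1, a relative of HNRNPA1, had 294 to 303 FPKM with control siRNA, 289 to 311 with siRNA 1 and 273 to 293 with siRNA 2, and HNRNPA3, another member of that subfamily, had 105 to 109, 92.9 to 97.1 and 91.2 to 97.5 FPKM. The change of HNRNPA2B1 was 0.00 with siRNA 1 and -0.07 with siRNA 2 (SE 0.0361, limma adjusted P = 0.98 and 0.12), so that within the A/B subfamily HNRNPA1 and HNRNPA0 were called lower and HNRNPA2B1 did not pass the test. HNRNPU, a nuclear matrix protein that binds chromatin, and HNRNPUL2 had positive values with siRNA 1 (0.21 and 0.17, limma adjusted P = 7.0e-05 and 0.0024), and HNRNPUL2 kept 0.19 with siRNA 2 while HNRNPU was at 0.02. Of the HNRNPUL2 windows, 44.7% are shared with the readthrough gene HNRNPUL2-BSCL2. HNRNPF had 0.16 with siRNA 1 and -0.03 with siRNA 2, and HNRNPK, a poly(C) binder, 0.14 and 0.05.

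HNRNPC, HNRNPD, HNRNPH1, HNRNPL, HNRNPR and HNRNPUL1 lay between -0.05 and 0.06 with siRNA 1 and between -0.17 and 0.03 with siRNA 2. The least abundant hnRNP, HNRNPH2, had 5.23, 6.32 and 5.62 FPKM with control siRNA, 8.47, 4.72 and 6.75 with siRNA 1 and 7.55, 7.16 and 6.55 with siRNA 2. The siRNA 1 libraries spanned the range of the control, and neither change passed the test (log2 fold changes 0.16 and 0.27, SE 0.15, limma adjusted P = 0.38 and 0.14). After the length correction its value with siRNA 2 was 0.41, and it was then called higher.

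**Figure D2:**
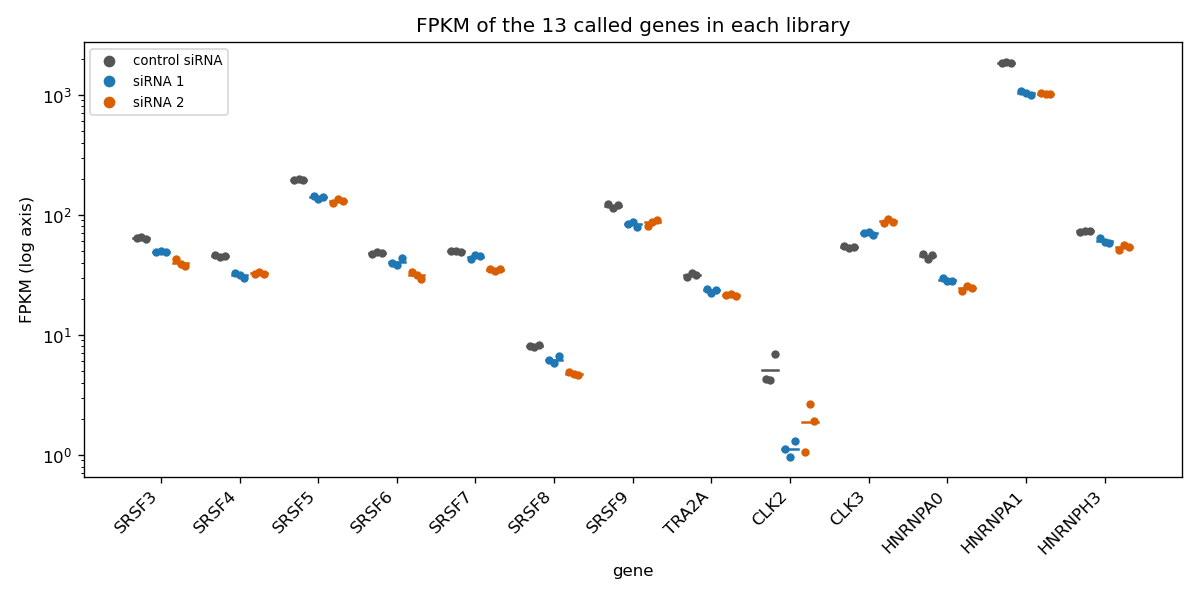
FPKM on a log axis of the 13 genes called with either siRNA, with 1 point per library, a line at each group mean, and control siRNA, siRNA 1 and siRNA 2 from left to right within a gene. CLK3 is the only one of the 13 with siRNA libraries above the control, and CLK2 has the widest spread within groups.

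Because HNRNPA1 alone made up 49.5% to 49.9% of the summed hnRNP FPKM in the control libraries, the classes were also summed per library, a view chosen after the values were seen and given without a test. The share of HNRNPA1 was 35.1% to 36% with siRNA 1 and 36.1% to 37.2% with siRNA 2. The other 17 hnRNPs summed to 1866 to 1879 FPKM with control siRNA, 1848 to 1899 with siRNA 1 and 1754 to 1794 with siRNA 2. The siRNA 1 sums thus overlapped the control, whereas the siRNA 2 sums were below it. The order turned after scaling, with 1812 to 1831 FPKM for control siRNA, 1789 to 1852 for siRNA 1 and 1847 to 1873 for siRNA 2, so no direction is given for this sum. The 14 SR proteins summed to 861 ± 2.03 FPKM (SD, n = 3) with control siRNA, 703 ± 8.20 (SD, n = 3) with siRNA 1 and 652 ± 5.63 (SD, n = 3) with siRNA 2. After scaling the siRNA sums overlapped each other (678 to 694 and 678 to 688 FPKM) and stayed below the control (833 to 844 FPKM). The ratio of HNRNPA1 to SRSF1, a pair with opposing action at many exons, was 29.8 to 30.3 in control libraries, 19.9 to 21.9 with siRNA 1 and 20.2 to 21.8 with siRNA 2, lower in each siRNA library than in each control library. The 4 CLK kinases summed to 134 ± 1.05 FPKM (SD, n = 3) with control siRNA, 149 ± 0.709 (SD, n = 3) with siRNA 1 and 171 ± 3.39 (SD, n = 3) with siRNA 2, and CLK3 made up 38.9% to 41.1%, 46.1% to 47.9% and 50.6% to 53.0% of these sums.

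**Figure D3:**
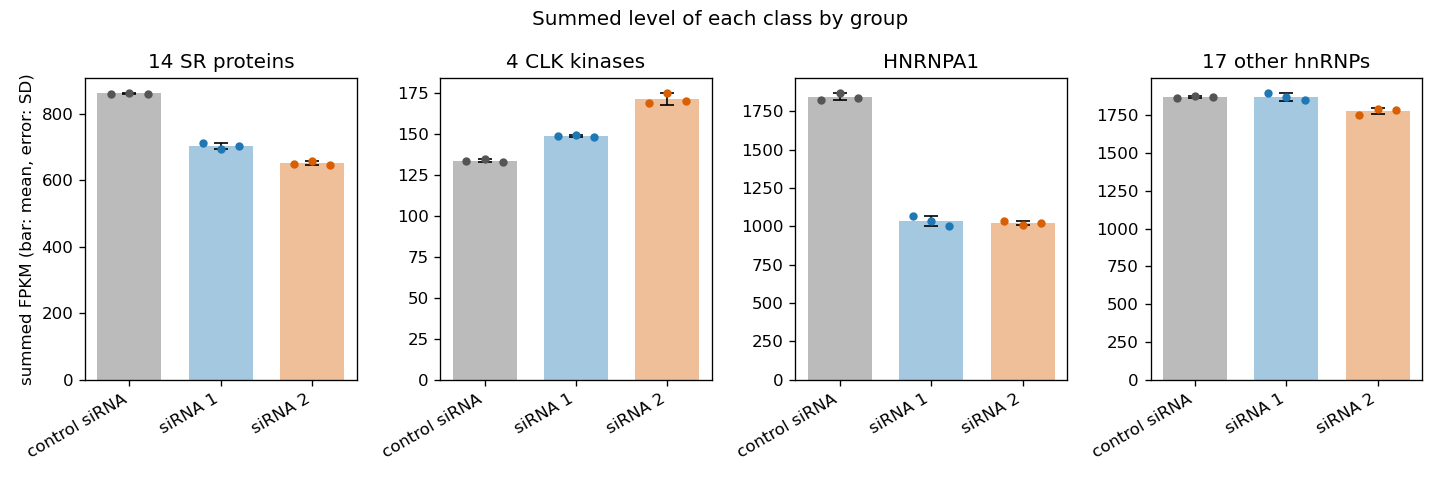
Summed FPKM of the 14 SR proteins, the 4 CLK kinases, HNRNPA1 alone and the other 17 hnRNPs in each group, on axes that start at 0, with points for the libraries, bars for the means and error bars for the SD. The SR proteins and HNRNPA1 are lower with both siRNAs, the CLK sum is higher, and the other hnRNPs stay within 1754 to 1899 FPKM, where the values are as deposited and the siRNA 2 sum lies above the control after scaling.

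The siRNAs were also compared with each other. By the criteria above, 0 of the 35 regulators were called higher or lower with siRNA 2 against siRNA 1, where 2.19% of all genes were called higher and 5.45% lower. Without the fold limit, limma gave an unadjusted P of at most 0.05 for 1 higher and 18 lower regulators and an adjusted P of at most 0.05 for 1 higher and 17 lower (all genes: 10.2% and 33.9%). This split rests on the scale of the libraries: at the same adjusted P it was 11 higher and 7 lower after scaling, 13 and 6 after the GC correction and 11 and 6 after the length correction. The libraries of both siRNAs did not overlap for 20 of the 35, beside 53.7% of all genes. The median of all tested genes was -0.081 in this comparison, and that of the SR proteins was -0.13, which was -0.02 after scaling. CLK3 was higher with siRNA 2 by 0.33 on the log2 scale (limma adjusted P = 1.4e-04), and SRSF6, SRSF7, SRSF8 and SRSF3 were lower by -0.36, -0.35, -0.32 and -0.30 (limma adjusted P = 9.6e-04, 8.4e-05, 7.8e-04 and 7.3e-04). The difference for HNRNPA1 was -0.02 (SE 0.0272, limma adjusted P = 0.67).

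**Figure D4:**
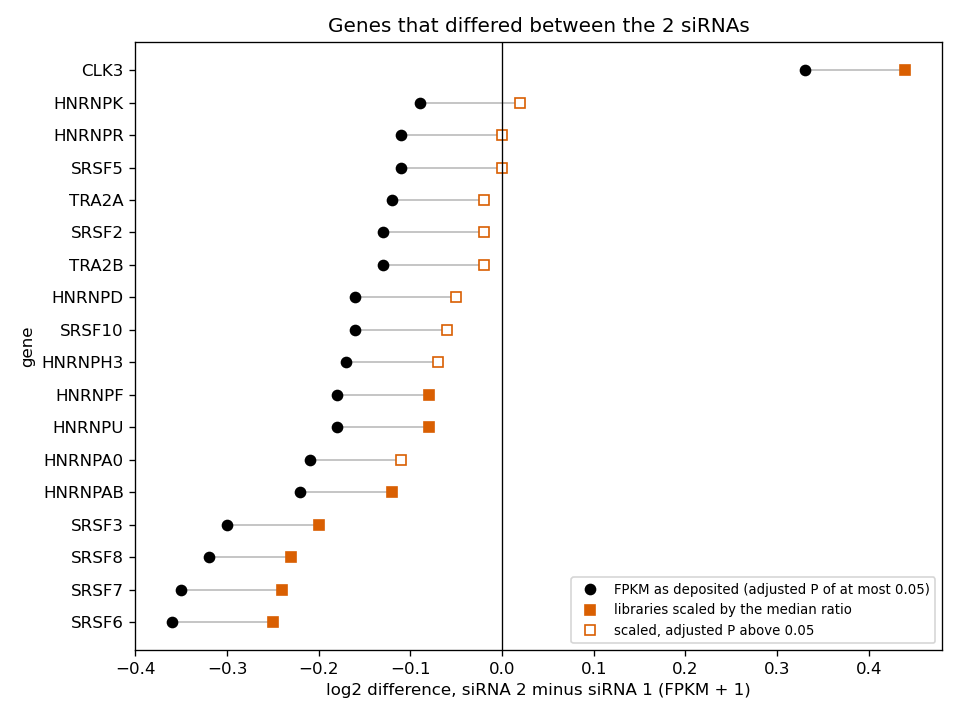
Log2 difference between siRNA 2 and siRNA 1 for the 18 genes whose adjusted P was 0.05 or less in that comparison, as deposited (black circles) and after scaling (orange squares, open where the adjusted P exceeded 0.05). CLK3 and 7 lower genes keep an adjusted P of at most 0.05 after scaling.

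Promoters are shown for the called member of each class with the largest mean change among those in the RefSeq table, and for CLK3 as the gene that rose, to let the sequence near their start sites be compared. The table (GRCh38.p14) held 33 of the 36 genes, each with 250 bases before and 50 from the start site on, and had no entry for HNRNPA1, SRSF2 or TRA2A. Sequences run 5′ to 3′ in the direction of the gene, and capitals mark matches, on either strand, to any of 8 motifs chosen after the data were in hand.
SRSF3, chr6:36594112-36594411, forward strand: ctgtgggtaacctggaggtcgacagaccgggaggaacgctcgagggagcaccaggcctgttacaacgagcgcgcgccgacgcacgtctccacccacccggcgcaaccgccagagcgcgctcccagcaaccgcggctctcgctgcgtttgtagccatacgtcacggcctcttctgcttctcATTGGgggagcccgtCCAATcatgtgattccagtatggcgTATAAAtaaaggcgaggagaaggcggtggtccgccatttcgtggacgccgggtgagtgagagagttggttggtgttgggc
CLK2, chr1:155273455-155273754, reverse strand: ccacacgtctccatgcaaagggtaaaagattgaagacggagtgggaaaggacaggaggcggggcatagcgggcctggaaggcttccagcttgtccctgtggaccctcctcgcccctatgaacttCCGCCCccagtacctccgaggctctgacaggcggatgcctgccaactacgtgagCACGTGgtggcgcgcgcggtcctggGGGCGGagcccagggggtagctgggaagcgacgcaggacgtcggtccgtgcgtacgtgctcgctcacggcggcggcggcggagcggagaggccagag
CLK3, chr15:74608122-74608421, forward strand: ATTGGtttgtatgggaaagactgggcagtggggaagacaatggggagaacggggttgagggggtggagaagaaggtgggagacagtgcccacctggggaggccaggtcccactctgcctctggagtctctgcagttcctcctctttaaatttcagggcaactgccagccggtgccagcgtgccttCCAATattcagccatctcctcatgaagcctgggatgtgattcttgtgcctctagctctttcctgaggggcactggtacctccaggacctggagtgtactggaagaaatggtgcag
HNRNPA0, chr5:137754314-137754613, reverse strand: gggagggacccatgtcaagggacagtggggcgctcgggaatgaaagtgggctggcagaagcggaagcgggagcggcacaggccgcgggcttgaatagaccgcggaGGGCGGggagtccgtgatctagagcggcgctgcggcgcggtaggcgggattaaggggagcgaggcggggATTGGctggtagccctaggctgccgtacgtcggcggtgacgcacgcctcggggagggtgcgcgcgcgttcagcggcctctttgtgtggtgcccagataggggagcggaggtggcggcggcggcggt
SRSF3 held a TATA box 30 bases before the start and a CCAAT box on each strand at 55 and 70 bases before it. CLK3 held CCAAT matches on both strands, CLK2 held an E-box and GC boxes, and HNRNPA0 held a CCAAT box and a GC box. The CCAAT box (CCAAT) was found in 2 of 12 SR protein, 1 of 4 CLK and 12 of 17 hnRNP promoters and in 36.6% of 8967 promoters of tested genes, and the GC box (GGGCGG) in 6, 3 and 13 of these (72.1% of all). The E-box (CACGTG) was found in 0, 2 and 6 promoters (10.3% of all), the ETS core (CCGGAAG) in 2, 0 and 2 (20.3%), and the TATA box (TATAAA) in 2, 0 and 3 (5.2%). The heat-shock element core (GAANNTTC or TTCNNGAA) was found in 1, 0 and 2 promoters (9.6% of all), whereas the CRE core (TGACGTCA; 3.4% of all) and the YY1 core (AAGATGGC; 5.8% of all) were found in 0. Matches to different motifs were allowed to overlap. A match describes letters in this window and not a bound site.

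Other genes of the splicing pathway were taken from 6 lists, whose counts are to be read against the 11.1% of all genes called higher and 15.6% called lower with siRNA 1, and 11% and 23.1% with siRNA 2. Of the 5 tested SR protein kinases other than CLKs and SR importin genes (SRPK1, SRPK2, DYRK1A, PRPF4B and TNPO3), 0 were called with either siRNA, and both the unadjusted and the adjusted limma P were at most 0.05 for 4 higher with siRNA 1 and 1 lower with siRNA 2. The siRNA 2 counts depended on the scale of the libraries. At the same adjusted P they were 4 higher and 0 lower after scaling. They were 2 and 1 after the GC correction and 2 and 0 after the length correction. SRPK3 (mean 0.63 FPKM) was under the filter. Among 18 SR-related proteins, 1 was called higher and 1 lower with siRNA 1, and 2 higher and 1 lower with siRNA 2. These were SRRM1, a coactivator of splicing (log2 fold changes 0.55 and 0.58, limma adjusted P = 2.5e-07 and 9.3e-08), LUC7L, a U1 snRNP-associated factor (-0.70 and -0.78, limma adjusted P = 5.0e-06 and 1.6e-06), and PNN with siRNA 2 (0.40, limma adjusted P = 1.5e-05).

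Of 12 hnRNPs outside the main list, 3 were called lower with each siRNA, PCBP2 (-0.76 and -0.68), CIRBP, a cold-inducible RNA-binding protein (-0.62 and -0.60), and RBMX (-0.45 and -0.63), and SYNCRIP was called higher with siRNA 1 (0.51). The share called lower with siRNA 2 was near that of all genes. Core spliceosome genes had the opposite median to the SR proteins, 0.19 and 0.20 over 25 tested genes, with 5 called higher and 1 lower with siRNA 1 and 3 higher and 2 lower with siRNA 2. The siRNA 2 counts were 9 higher and 0 lower after scaling and 7 and 0 after each of the GC and length corrections, and as deposited they were near or below the shares of all genes. Those shares apply to the values as deposited. None are given after scaling or correction, so the changed counts have no background beside them. Examples were SNRPG, a ring protein of the snRNPs (0.55 and 0.57), PRPF8, the scaffold of the catalytic core (0.53 and 0.40), and SNRNP70 of the U1 snRNP (-0.55 and -0.42). SNRNP70 lost its call with siRNA 2 after scaling (-0.31) and the length correction (-0.27), and with both siRNAs after the GC correction (-0.18 and -0.02). PRPF3, a core factor that cells need, is listed at a mean of 0.122 FPKM and was under the filter, which may be a failed estimate. In the nonsense-mediated decay list of 10, UPF3A was called lower with both siRNAs (-1.03 and -0.87) and SMG8 lower with siRNA 2 (-0.50), a call that the length correction ended (-0.36). Among 8 tissue splicing regulators, the epithelial factors ESRP2 (-0.75 and -1) and ESRP1 (-0.51 and -0.72) were called lower with both siRNAs, RBFOX2 higher with siRNA 1 (0.54) and CELF1 higher with siRNA 2 (0.43).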

How the data were processed

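RNA of MDA-MB-453 cells was sequenced by the authors on the BGISEQ-500 platform, with 3 libraries for each of control siRNA, siRNA 1 and siRNA 2. The authors deposited FPKM per gene. The aligner's role, the counting tool and the use of strand are not given in the sources used here, while the processing notes name Bowtie2 (version 2) and GRCh37.p13. The 9 FPKM columns occur a second time in the table with identical content, and their first occurrence was read. Deposited log2 ratios, p-values and q-values between groups were not used. A further 4 lines without values were dropped.

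FPKM were analysed as log2(FPKM + 1) for the 12884 genes whose mean reached 1 FPKM, using limma 3.58.1 under R 4.3.3 (lmFit, then eBayes with a trend), all 9 libraries in 1 fit and the group as the only factor. A fold change of at least 1.3 and P of at most 0.05 were required for a call, and Benjamini-Hochberg adjusted P values are over all 12884 genes. The genes and lists were chosen with earlier results of these data known. Full values are given for called genes, for the most and the least abundant of each class and for those under the filter, and up to 4 genes of each other list with the largest mean change are named, apart from items not reported here. In simulated data for siRNA 1 against control with 12884 genes, 100% of 100 genes changed by 0.6 and 100% of 100 changed by 1 on the log2 scale were recovered, and 39 unchanged genes were called.

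The depth, 23.2 to 27.9 M (mega) fragments per library, was fitted to the spacing of low FPKM in transcripts of 300 to 900 bases, and intervals were not computed from it. Replicate labels repeat in each group, but after the group means were subtracted, libraries with the same label correlated with a mean r of 0.018, -0.098 and -0.099 over the 3 comparisons, so the labels were not taken as pairs. Sequences shared between genes and siRNA seeds were searched in GENCODE release 29 transcripts. Python 3.11.15 (numpy 2.4.6, pandas 2.3.3) was used for tables and matplotlib 3.10.9 for figures. Alternatives included another pseudocount (0.1), other filters and fold limits, scaling by the median ratio, corrections for GC content and length, a replicate block and leaving out each library.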

Additional observations from a re-analysis of the deposited data

Results flagged for a closer look

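The change differed between the siRNAs, by the limma contrast of siRNA 2 minus siRNA 1 with an adjusted P of at most 0.05, for 18 of the 35 tested regulators, and none of these differences reached 1.3-fold. At the same limit, 10.2% of all tested genes were higher and 33.9% lower. The median of all tested genes in this contrast was -0.081. CLK3 was higher with siRNA 2, by 0.33. Among SR proteins the differences were -0.36 for SRSF6, -0.35 for SRSF7, -0.32 for SRSF8, -0.30 for SRSF3, -0.16 for SRSF10, -0.13 for SRSF2, -0.13 for TRA2B, -0.12 for TRA2A and -0.11 for SRSF5. Among hnRNPs they were -0.22 for HNRNPAB, -0.21 for HNRNPA0, -0.18 for HNRNPF, -0.18 for HNRNPU, -0.17 for HNRNPH3, -0.16 for HNRNPD, -0.11 for HNRNPR and -0.09 for HNRNPK. The split of 1 higher and 17 lower depends on the scale of the libraries, since over all 35 it was 11 higher and 7 lower after scaling by the median ratio, 13 and 6 after the GC correction and 11 and 6 after the length correction. After scaling, 8 of the 18 kept their direction with an adjusted P of at most 0.05: CLK3 (0.44), SRSF6 (-0.25), SRSF7 (-0.24), SRSF8 (-0.23), SRSF3 (-0.20), HNRNPAB (-0.12), HNRNPF (-0.08) and HNRNPU (-0.08).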

How the results depend on the processing

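The counts of regulators called lower, 7 with siRNA 1 and 12 with siRNA 2, were 7 to 8 and 12 with each library left out in turn. With a pseudocount of 0.1 these counts were 8 (SRSF3 added) and 12. They became 1 and 1 with a fold limit of 2, and 16 and 21 with an adjusted P and no fold limit. The counts called higher, 0 and 1, became 7 and 5 without the fold limit; the first was 1 with a pseudocount of 0.1 and 0 to 1 with each library left out (CLK3, without the first control library or the r2 library of siRNA 1), and the second was 2 after the length correction (HNRNPH2 added) and 0 with a fold limit of 2. For siRNA 2 against siRNA 1, the 0 higher became 1 after scaling, 2 after the GC correction, 2 after the length correction and 1 without the fold limit, and the 0 lower became 17 without it; with each library left out both counts were 0 to 1. Scaling and the length correction left 9 lower with siRNA 2, and the GC correction gave 10 lower with siRNA 1. The hnRNP median with siRNA 2 was 0.04 after scaling, against -0.07. With the label as a replicate block the counts were 0 higher and 7 lower with siRNA 1, 1 and 12 with siRNA 2, and 0 and 0 between the siRNAs, as without it.

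Among the 13 called genes, the differences between siRNA 2 and siRNA 1 that changed sign were those of SRSF5 (0.00 after scaling, 0.02 after the GC correction), TRA2A (0.00 after the GC correction) and HNRNPA1 (0.09 after scaling, 0.10 after each correction, and -0.04 to 0.01 with each library left out). Other regulators changed sign as well, such as HNRNPK (-0.09, and 0.02 after scaling). The sum of the 17 hnRNPs other than HNRNPA1, as the siRNA mean minus the control mean, went from 0.717 to -0.123 FPKM with siRNA 1 and from -93.1 to 42.1 FPKM with siRNA 2 after scaling, an alternative for sums chosen after seeing the data. The cause was not tested. Over the 13 called genes and 3 comparisons, 630 alternative values kept their direction and side of the threshold, 16 newly passed it and 7 no longer did. Depth limits CLK2 most, which rests on as few as 73 fragments.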
